A study of Mus musculus with 8 samples.

Results

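Phosphate handling and vitamin D metabolism in the kidney were described through 10 genes, chosen by name as the phosphate carriers, the receptors of the hormones that set phosphate reabsorption, and the vitamin D enzymes and receptor. All 10 were found among the 55367 genes listed in the deposited counts, and all 10 passed the filter on low counts. The carriers were *Slc34a1*, *Slc34a3*, *Slc20a1*, and *Slc20a2*. The hormone receptors were *Pth1r*, *Kl*, and *Fgfr1*, and the vitamin D genes were *Cyp27b1*, *Cyp24a1*, and *Vdr*.

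Filtered phosphate is taken back from the urine mainly by sodium-dependent carriers in the brush border of the proximal tubule. Parathyroid hormone and FGF23, a hormone made in bone that needs the co-receptor Klotho, lower the amount of these carriers at the cell surface. The proximal tubule also takes up filtered vitamin D and makes its active form, calcitriol, which acts through a nuclear receptor and is broken down by an enzyme that calcitriol itself induces.

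Whole kidneys were sequenced by RNA-Seq in 4 *c-Maf* ΔTAM mice (KO mice) and 4 *c-Maf fl/fl* mice (control mice) on the C57BL/6J strain, aged 8 weeks by the labels, which name the genotypes Maf conditional KO and Maf flox/flox. Both genotypes carried floxed *c-Maf*, and by the study's methods both received tamoxifen (TAM), so TAM itself is shared by the groups. Injections into the peritoneum began at 8 weeks of age and were given on 5 days in a row. The study compares the genotypes mainly 10 days after TAM and speaks of that day in discussing its RNA-Seq, but its RNA-Seq methods and the labels give no interval and do not say whether the labeled age is that at injection or at sampling. The KO mice also carried a *CAG-Cre-ER* TM transgene, whose CAG promoter is active in most cell types, so the deletion was not restricted to the kidney or to a tubule segment, and the groups differ in the Cre transgene as well as in *c-Maf*. Each mouse was 1 replicate, and the sexes are not given.

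Total counts of KO mice 1 to 4 were 22990257, 18896014, 17188052, and 16649129, and control mice 1 to 4 had 18696580, 20890209, 20371115, and 19897769. Levels are given as CPM, that is, counts scaled to a common library size by the TMM method. Mitochondrial genes held 32.3%, 22.1%, 21.6%, and 18.7% of the counts of KO mice 1 to 4 and 17.1%, 18.7%, 18.7%, and 25.5% of those of control mice 1 to 4. The female-specific transcript *Xist* gave 2 counts in KO mouse 1, 6 in control mouse 3, and 22 in control mouse 4, and from 17618 to 22387 in each of the remaining 5. The genotypes therefore hold low-*Xist* mice in unequal number, 1 of 4 and 2 of 4.

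The targeted gene, *Maf*, was at 9.06, 34.5, 29.6, and 10.1 CPM in KO mice 1 to 4 and at 379.9, 342, 305, and 351 CPM in control mice 1 to 4. All 4 KO mice lay far below all 4 control mice, and KO mice 1 and 4 held the least. Its log2 fold change, KO relative to control, was -4.05 (standard error, SE, of 0.512; adjusted *P* = 0.0115, edgeR's quasi-likelihood test with Benjamini-Hochberg adjustment). The edgeR adjusted *P* was 0.108 (log2 fold change -3.87) in the 5 high-*Xist* mice alone and 0.0556 (-3.79) without the mice whose mitochondrial share was over 25%. With the replicate number as a block it was 0.0516 (-4.28).

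Of the 10 genes, 3 were lower in KO than in control mice at an adjusted *P* under 0.05 and 0 were higher, where 2.16% of the 20149 genes tested were called, 1.58% lower and 0.586% higher. At an unadjusted *P* under 0.05 in edgeR's quasi-likelihood test, 5 were lower and 0 were higher, beside 7.44% and 6.58% of all genes tested. In edgeR's exact test, DESeq2, and limma, 0 of the 10 were higher. Over all genes tested, those tools called 218 of 31280, 280 of 23122, and 141 of 20149 higher. The values of the genotypes did not overlap in 5 of the 10, always with KO mice lower, against 5.62% of all genes tested that were lower without overlap and 9.79% in either direction. The 10 log2 fold changes had a median of -0.29, beside 0.0027 over all genes tested. The 10 genes, and the pathway and marker lists further below, were chosen with earlier results of these data known. Setting their counts beside the shares of all genes tested is therefore a description and not a test. The count of 3 fell to 1 when KO mouse 4 or control mouse 3 was left out, and the whole-table count of 436 fell to 239, 256, and 285 without KO mouse 3, KO mouse 2, and control mouse 3.

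**Figure D1:**
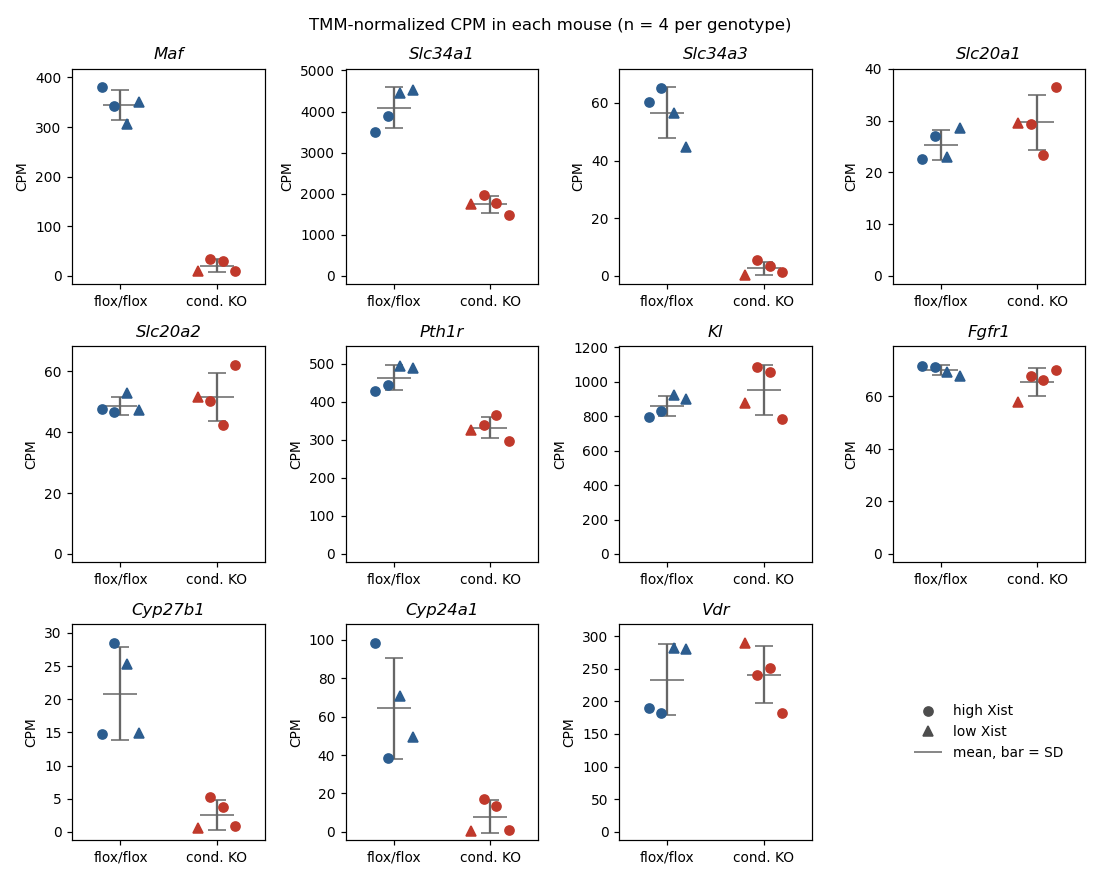
TMM-normalized CPM (vertical axis, linear and different in each panel) of *Maf* and the 10 genes in each mouse, with control mice in blue and KO mice in red (flox/flox and cond. KO on the horizontal axis), circles for high and triangles for low *Xist*, and the mean with SD as a bar. The points of the genotypes are separate for *Maf*, *Slc34a1*, *Slc34a3*, *Pth1r*, *Cyp27b1*, and *Cyp24a1* and overlap for the other 5 genes.

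*Slc34a1* encodes the main sodium-phosphate cotransporter of the proximal tubule brush border. It was at 1747, 1972, 1779, and 1481 CPM in KO mice 1 to 4 and at 3501, 3893, 4463, and 4532 CPM in control mice 1 to 4. The genotypes were well separated, and the highest KO mouse lay far below the lowest control mouse. On average it was at 1745 ± 202 CPM and 4098 ± 489.9 CPM (SD, n = 4 each). The difference on the log2 scale was -1.23 (SE 0.123, 95% interval -1.50 to -0.96, adjusted *P* = 0.000217, edgeR's quasi-likelihood test), a level 2.35-fold lower in KO mice. It passed the threshold in all 12 alternative fits and in all 8 fits that each left out 1 mouse. In whole kidney, fewer cells of a type and less RNA per cell cannot be told apart. The gene lies at chr13:55398187-55415592 on the plus strand of GRCm38 and shares 11.7% of its exonic bases with *Pfn3*, where reads were not counted for either gene.

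*Slc34a3* encodes a second sodium-phosphate cotransporter of the same membrane. Its counts were 8, 106, 60, and 25 in KO mice 1 to 4 and 1229, 1441, 1114, and 762 in control mice 1 to 4, or 0.407, 5.44, 3.33, and 1.35 CPM against 60.3, 65.0, 56.5, and 44.7 CPM. It was nearly absent from KO mouse 1 and low in the other 3, whereas the control mice resembled each other. The highest value was 13.4 times the lowest among KO mice and 1.46 times among control mice. The log2 fold change was -4.42 (SE 0.611, 95% interval -5.88 to -2.97, adjusted *P* = 0.0171, edgeR's quasi-likelihood test), a level 21.5-fold lower in KO mice. It was the lowest log2 fold change of the 10 genes. With single mice left out the log2 fold change ranged from -5.07 (without KO mouse 2) to -4.06. The sign held in each fit, but in edgeR the adjusted *P* was 0.0725 without KO mouse 3, 0.0573 without KO mouse 4, and 0.0548, 0.0519, and 0.0556 without control mice 1, 2, and 3. With the replicate number as a block it was 0.0683. The gene lies at chr2:25228898-25234364 on the minus strand without exonic bases shared with other genes.

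*Slc20a1* and *Slc20a2* encode widely expressed sodium-phosphate carriers of another family. *Slc20a1* was at 29.5, 29.3, 23.3, and 36.4 CPM in KO mice 1 to 4 and at 22.5, 27, 23.0, and 28.5 CPM in control mice 1 to 4. *Slc20a2* was at 51.5, 50.4, 42.4, and 62.0 CPM and at 47.7, 46.8, 52.9, and 47.2 CPM. The genotypes overlapped for both genes, and KO mouse 4 had the highest value of each. Log2 fold changes were 0.23 (95% interval -0.06 to 0.52, adjusted *P* = 0.490, edgeR) for *Slc20a1* and 0.085 (95% interval -0.15 to 0.32, adjusted *P* = 0.791, edgeR) for *Slc20a2*. For *Slc20a2* the sign turned without KO mouse 4, to -0.016. *Slc20a1* shares 13.1% of its exonic bases with *9830144P21Rik* and *Gm4430*.

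Levels of different carriers were compared as CPM per kilobase of exon. *Slc34a1* held 96.5%, 96.4%, 96.8%, and 94.9% of the summed level of the 4 carriers in KO mice 1 to 4 and 95.3%, 95.4%, 96.3%, and 96.8% in control mice 1 to 4. Its share was alike in the genotypes, but a gene that makes up nearly all of a sum can change little in share. The sum was 387, 437, 393, and 334 CPM per kilobase in KO mice and 786, 872, 991, and 1001 in control mice. *Slc34a3* held 0.0446%, 0.528%, 0.359%, and 0.172% of the sum in KO mice 1 to 4 and 3.25%, 3.16%, 2.42%, and 1.89% in control mice 1 to 4. In KO mice each of the *Slc20* carriers held more of the sum than *Slc34a3* did, and in control mice each held less. *Slc20a1* and *Slc20a2* ranged from 1.06% to 1.95% and from 1.74% to 2.99% of the sum in KO mice, and from 0.417% to 0.554% and from 0.759% to 0.976% in control mice. Their own levels overlapped between the genotypes, so these larger shares mainly reflect the smaller sum in KO mice.

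*Pth1r* encodes the parathyroid hormone receptor. It was at 325, 338, 365, and 298 CPM in KO mice 1 to 4 and at 429, 444, 493, and 488 CPM in control mice 1 to 4. Every KO mouse was below every control mouse, with a narrower gap than in the *Slc34* carriers. The log2 fold change was -0.48 (SE 0.0934, 95% interval -0.69 to -0.28, adjusted *P* = 0.0194, edgeR's quasi-likelihood test). In edgeR the adjusted *P* was 0.0658 without KO mouse 2, 0.0539 without KO mouse 4, and 0.0701 and 0.0575 without control mice 3 and 4. It was 0.0531 after quantile normalization with limma and 0.0559 in edgeR without the mice of high mitochondrial share. With the replicate number as a block it was 0.161 in edgeR. The gene shares 3.25% of its exonic bases with *Myl3*.

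*Kl* encodes Klotho and *Fgfr1* the FGF receptor that binds FGF23 together with it. *Kl* was at 879.6, 1087, 1055, and 784 CPM in KO mice 1 to 4 and at 796, 831, 922, and 898 CPM in control mice 1 to 4. *Fgfr1* was at 57.9, 67.7, 65.9, and 70 CPM and at 71.5, 71.1, 69.3, and 67.6 CPM. Neither gene separated the genotypes. The log2 fold change of *Kl* was 0.14 (95% interval -0.11 to 0.40, adjusted *P* = 0.644, edgeR), and that of *Fgfr1* was -0.10 (95% interval -0.27 to 0.08, adjusted *P* = 0.656, edgeR). Of the 3 receptor genes, only *Pth1r* passed the threshold, and the genes were not tested against each other.

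*Cyp27b1* encodes the enzyme that makes calcitriol. Its counts were 11, 101, 68, and 15 in KO mice 1 to 4 and 301, 630, 498, and 255 in control mice 1 to 4, or 0.560, 5.19, 3.77, and 0.812 CPM against 14.8, 28.4, 25.3, and 15.0 CPM. The genotypes did not overlap, and KO mice 1 and 4 were the lowest. The log2 fold change was -3.01 (SE 0.669, 95% interval -4.60 to -1.43), but it missed the threshold in edgeR's quasi-likelihood test (unadjusted *P* = 0.00289, adjusted *P* = 0.0880). It passed in 3 of the 12 alternatives, among them edgeR's exact test (adjusted *P* = 2.78e-05) and DESeq2 (adjusted *P* = 0.00231), both with other gene filters, and over the 12 alternatives the adjusted *P* ranged from 2.78e-05 to 0.274.

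*Cyp24a1* encodes the enzyme that inactivates calcitriol. Its counts were 9, 330, 247, and 14 in KO mice 1 to 4 and 2001, 856, 1391, and 846 in control mice 1 to 4, or 0.458, 16.9, 13.7, and 0.758 CPM against 98.2, 38.6, 70.6, and 49.6 CPM. All KO mice were again below all control mice, but they lay far apart from each other, with the highest at 37.0 times the lowest. The log2 fold change was -3.01 (SE 1.05, 95% interval -5.57 to -0.46, unadjusted *P* = 0.0276, adjusted *P* = 0.283, edgeR's quasi-likelihood test). It passed in edgeR's exact test, with its wider gene filter, alone (adjusted *P* = 0.0294, beside a range of 0.0294 to 0.520 over 11 alternatives). Its log2 fold change ranged from -3.70 to -2.61 with single mice left out and from -4.20 to -2.70 over the 11 alternatives.

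The ratio of *Cyp27b1* to *Cyp24a1*, each in CPM per kilobase, was 1.69, 0.423, 0.381, and 1.48 in KO mice 1 to 4 and 0.208, 1.02, 0.495, and 0.417 in control mice 1 to 4. The genotypes overlapped in this ratio, and the 2 highest ratios, in KO mice 1 and 4, rest on 9 and 14 counts of *Cyp24a1*. The same 2 mice held the least *Maf* and the least *Slc34a3*. Relative to the control mean, *Maf* was at 2.63%, 10%, 8.58%, and 2.94% in KO mice 1 to 4. *Slc34a3* was at 0.719%, 9.61%, 5.87%, and 2.39% of its control mean. *Cyp27b1* was at 2.68%, 24.9%, 18.1%, and 3.89%, and *Cyp24a1* at 0.713%, 26.4%, 21.3%, and 1.18%. These 4 genes put the 4 KO mice in one order, from mouse 1 through 4 and 3 to mouse 2. *Slc34a1* and *Pth1r* did not spread in this way and stayed between 36.2% and 48.1% and between 64.3% and 78.8% of their control means. KO mouse 1 also differs from the other 3 in *Xist* and in its mitochondrial share, whereas mouse 4 does not, and no relation across 4 mice was tested.

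**Figure D2:**
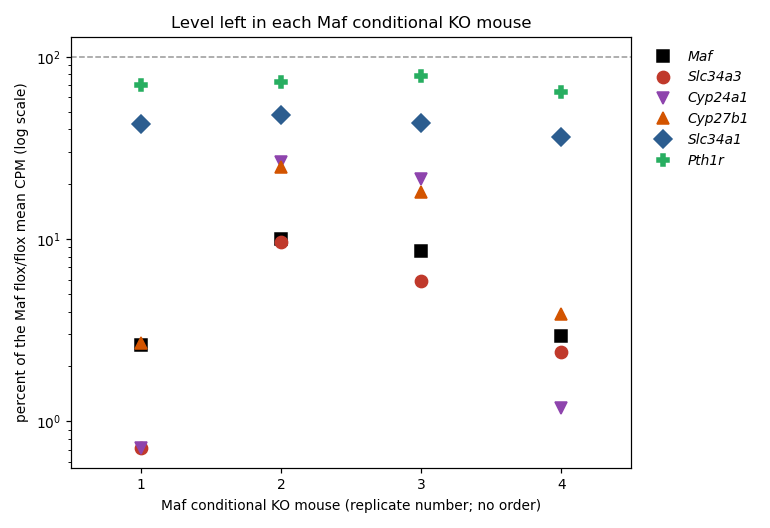
Level of 6 genes in each KO mouse as a percent of the mean CPM of the 4 control mice (vertical axis, log scale), by replicate number (horizontal axis, no order). *Slc34a3*, *Cyp27b1*, and *Cyp24a1* are low in mice 1 and 4, as *Maf* is, while *Slc34a1* stays between 36.2% and 48.1% and *Pth1r* between 64.3% and 78.8%; the dashed line marks 100%.

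*Vdr* encodes the nuclear receptor of calcitriol. It was at 289, 240.4, 250.2, and 183 CPM in KO mice 1 to 4 and at 189, 183, 281, and 280.0 CPM in control mice 1 to 4. The genotypes overlapped almost fully, with a log2 fold change of 0.045 (95% interval -0.35 to 0.44, adjusted *P* = 0.943, edgeR). The sign turned without KO mouse 1 (-0.053), control mouse 1 (-0.044), and control mouse 2 (-0.056). It was 0.27 in high-*Xist* mice alone (unadjusted *P* = 0.0431, adjusted *P* = 0.311, edgeR) and 0.18 with the *Xist* level as a covariate (adjusted *P* = 0.329, edgeR). The 3 mice with low *Xist* held the 3 highest values. In a fit with genotype and *Xist* class, *Vdr* was lower in high-*Xist* than in low-*Xist* mice by a log2 difference of -0.50 (SE 0.0974, adjusted *P* = 0.00312, edgeR's quasi-likelihood test). It was the 1 gene of the 10 called in that comparison, where 12.2% of all genes tested were called, and the adjusted *P* of the other 9 ranged from 0.286 to 0.936.

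In a fit with an interaction of genotype and *Xist* class, log2 fold changes in the low and the high class were -1.36 and -1.08 for *Slc34a1*, -6.94 and -4.20 for *Slc34a3*, -0.59 and -0.39 for *Pth1r*, -5.15 and -2.72 for *Cyp27b1*, and -7.02 and -2.70 for *Cyp24a1*. The low class holds KO mouse 1 as its only KO mouse, which also has the highest mitochondrial share, so *Xist* class, mitochondrial share, and the single mouse cannot be told apart there. The interaction itself had an adjusted *P* under 0.05 in edgeR in 0 of the 10 genes, beside 0.194% of all genes tested. With 1 KO mouse in a class that count does not show that the classes were alike. In a separate fit of the 5 high-*Xist* mice, log2 fold changes were -1.09 for *Slc34a1* (adjusted *P* = 4.51e-05), -4.21 for *Slc34a3* (adjusted *P* = 0.0438), and -0.39 for *Pth1r* (adjusted *P* = 0.0279, edgeR), while *Cyp27b1* (-2.73, adjusted *P* = 0.274) and *Cyp24a1* (-2.70, adjusted *P* = 0.442) missed the threshold.

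A two-sided exact permutation test of mean log2 CPM over all 70 assignments of the 8 mice gave *P* = 0.0286 for *Slc34a1*, *Slc34a3*, *Pth1r*, *Cyp27b1*, and *Cyp24a1*, which is the smallest *P* that 4 mice against 4 allow. Any gene whose genotypes do not overlap reaches this *P*, so it restates the separation of these genes and adds no further support. Of all genes tested, 9.79% did not overlap, 5.62% of them all being lower in KO mice. The other 5 genes had *P* from 0.143 to 0.857 in the same exact permutation test.

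**Figure D3:**
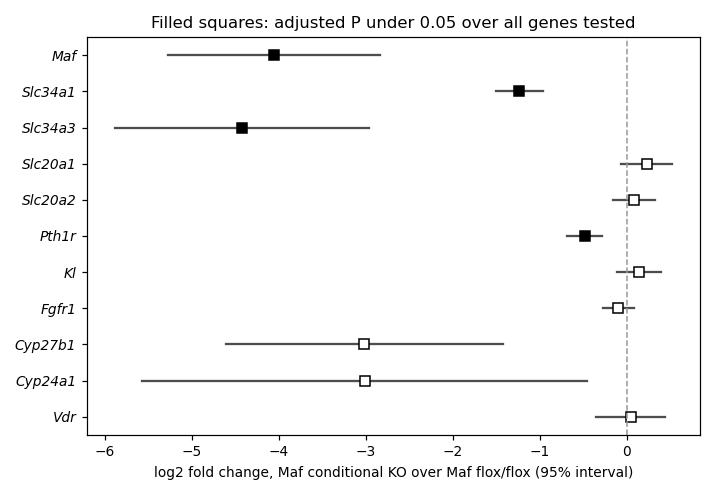
Log2 fold change of KO relative to control mice (horizontal axis) for *Maf* and the 10 genes (vertical axis), with 95% intervals from edgeR's quasi-likelihood fit of 4 mice against 4. Filled squares mark genes past the adjusted *P* threshold (*Maf*, *Slc34a1*, *Slc34a3*, and *Pth1r*), and the widest interval is that of *Cyp24a1*, from -5.57 to -0.46.

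In control mice the order of the 10 genes by mean CPM per kilobase was *Slc34a1* (876), *Pth1r* (158), *Kl* (92.4), *Vdr* (41.3), *Slc34a3* (24.0), *Cyp24a1* (18), *Cyp27b1* (8.10), *Slc20a2* (7.83), *Fgfr1* (7.07), and *Slc20a1* (4.53). The values of single mice overlapped between *Slc34a3* and *Cyp24a1*, between *Cyp24a1* and *Cyp27b1*, and between *Cyp27b1* and *Slc20a2*, and the other neighbors in the order did not overlap. In KO mice the first 4 were again *Slc34a1* (373), *Pth1r* (113), *Kl* (102.01), and *Vdr* (42.6), with overlap between *Pth1r* and *Kl*. The last 3 were *Cyp24a1* (2.24), *Slc34a3* (1.12), and *Cyp27b1* (1.00), below *Slc20a2* (8.30), *Fgfr1* (6.62), and *Slc20a1* (5.31) in mean CPM per kilobase. From *Slc20a2* down, the values of single KO mice overlapped between all neighbors in the order. The last 3 ranged from 0.129 to 4.76, from 0.173 to 2.31, and from 0.217 to 2.02, and KO mouse 1 held them in the reverse order.

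Other genes of these pathways were taken from 4 lists of 70 genes, of which 61 were tested. In edgeR's quasi-likelihood test, 6 of the 61 were lower and 0 were higher, beside 1.58% and 0.586% of all genes tested, with a median log2 fold change of -0.077 beside 0.0027 over all genes tested. At an unadjusted *P* under 0.05, 15 were lower and 2 were higher (7.44% and 6.58% of all genes tested). By tool, edgeR's exact test gave 4 lower and 0 higher, and DESeq2 7 lower and 1 higher. Limma gave 4 lower and 1 higher, and the higher gene was *Slc8a1* in both DESeq2 and limma. Over all genes tested, the exact test called 378 lower and 218 higher of 31280. DESeq2 called 556 lower and 280 higher of 23122, and limma 267 lower and 141 higher of 20149. The exact test did not call *Slc9a3r1*, *Ezr*, and *Dab2*, limma did not call *Ezr* and *Dab2*, and DESeq2 called all 6 genes and *Pdzd3*. The exact test also called *Etv4* lower. The count of 6 lower genes was 2 without KO mouse 2, 3, or 4 or control mouse 2 or 4. It was 3 without KO mouse 1, without control mouse 3, or without the mice of high mitochondrial share. Without KO mouse 1, and also without KO mouse 4, 1 gene was called higher.

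Of 17 phosphate transport partners, 2 were lower and 0 were higher in edgeR's quasi-likelihood test, beside 1.58% and 0.586% of all genes tested. *Slc9a3r1*, which encodes the scaffold NHERF1 that holds the *Slc34a1* carrier in the brush border, was at 162, 173, 174, and 150.4 CPM in KO mice 1 to 4 and at 203, 221, 217, and 263 CPM in control mice 1 to 4. No value of one genotype reached the other, and the log2 fold change was -0.46 (SE 0.0978, adjusted *P* = 0.0334, edgeR). *Ezr*, which encodes ezrin and links such scaffolds to actin, was at 288 ± 31.8 CPM and 408 ± 44.9 CPM (SD, n = 4 each), with a log2 fold change of -0.50 (adjusted *P* = 0.0398, edgeR). Of the 8 fits that left out 1 mouse, each of these genes passed in only 1, *Slc9a3r1* without control mouse 1 and *Ezr* without control mouse 3, and their adjusted *P* in edgeR reached 0.0893 and 0.111. The scaffold gene *Pdzk1*, which shares 41.7% of its exonic bases with *Gpr89*, *4930442L01Rik*, and *Cd160*, where reads were not counted, was at 327 ± 64.2 CPM and 417 ± 90.6 CPM (adjusted *P* = 0.433, edgeR), and the alkaline phosphatase gene *Alpl* at 391 ± 108 CPM and 468 ± 29.1 CPM (adjusted *P* = 0.587, edgeR). The list median was -0.12 on the log2 scale.

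Of 29 genes of FGF23, Klotho, and parathyroid hormone signaling, 22 were tested. In edgeR's quasi-likelihood test 3 were lower and 0 were higher, beside 1.58% and 0.586% of all genes tested. *Etv5*, a transcription factor gene induced by FGF signaling, was at 2.44, 4.52, 2.72, and 3.52 CPM in KO mice 1 to 4 and at 14.3, 10.5, 16.0, and 15.6 CPM in control mice 1 to 4. All KO mice were low and close together, unlike in *Slc34a3* and the vitamin D enzymes. Its log2 fold change was -2.09 (SE 0.212, adjusted *P* = 0.000232, edgeR). *Galnt3*, whose enzyme glycosylates FGF23, was at 27.8 ± 4.05 CPM and 46.3 ± 2.83 CPM (log2 fold change -0.73, adjusted *P* = 0.00414, edgeR). *Spry4*, an inhibitor of FGF signaling that FGF signaling induces, was at 12.1 ± 1.14 CPM and 17.4 ± 1.5 CPM (log2 fold change -0.53, adjusted *P* = 0.0337, edgeR). Of the 8 fits that left out 1 mouse, *Etv5* and *Galnt3* passed in 8 and *Spry4* in 0, where its adjusted *P* ranged from 0.0604 to 0.1016 in edgeR. Other genes of the list were not called in edgeR. Log2 fold changes were -0.54 for *Dusp6* (adjusted *P* = 0.253, edgeR) and -0.39 for *Spry2* (adjusted *P* = 0.205, edgeR). They were -0.046 for *Spry1* (adjusted *P* = 0.931, edgeR) and 0.81 for *Egr1* (adjusted *P* = 0.490, edgeR). FGF signaling itself was not tested. The most abundant genes of the list per length, *Sgk1*, *Prkaca*, and *Casr*, had adjusted *P* values of 0.823, 0.719, and 0.996 in edgeR. The hormone genes *Fgf23* and *Pth* had 0 counts in all 8 mice, and the list median was -0.024.

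Of 18 genes of vitamin D uptake, metabolism, and receptor partners, 16 were tested. In edgeR's quasi-likelihood test 1 was lower and 0 were higher, beside 1.58% and 0.586% of all genes tested. *Dab2*, an endocytic adaptor of megalin, was at 325, 337, 314, and 294 CPM in KO mice 1 to 4 and at 386, 409, 419, and 459 CPM in control mice 1 to 4. The genotypes did not overlap, and the log2 fold change was -0.40 (SE 0.0879, adjusted *P* = 0.0392, edgeR). It passed in 2 of the 8 fits that left out 1 mouse, without KO mouse 1 and without control mouse 1, and its adjusted *P* in edgeR reached 0.135. *Lrp2*, which encodes megalin, the receptor for filtered vitamin D-binding protein, was at 6759 ± 1548 CPM and 7579.6 ± 684 CPM (log2 fold change -0.17, adjusted *P* = 0.719, edgeR), with the lowest value, 4466 CPM, in KO mouse 1. *Cubn*, which encodes cubilin, its partner, was at 1276 ± 65.1 CPM and 1307 ± 94.8 CPM (log2 fold change -0.034, adjusted *P* = 0.912, edgeR). *Pdia3* had an adjusted *P* of 0.644 in edgeR, and the list median was -0.17.

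Of 6 calcium transport genes known as targets of the vitamin D receptor, 0 passed edgeR's quasi-likelihood test, and at an unadjusted *P* under 0.05, 1 was higher and 1 was lower, beside 6.58% and 7.44% of all genes tested. *S100g*, which encodes calbindin-D9k, was at 62.4, 296, 314, and 108 CPM in KO mice 1 to 4 and at 302, 301, 218, and 255 CPM in control mice 1 to 4. *Calb1*, which encodes the larger calbindin of the distal tubule, was at 180.0, 387, 415, and 179 CPM and at 278, 289, 321, and 248 CPM. In both genes KO mice 1 and 4 were the lowest of the 8 mice, and neither gene separated the genotypes (adjusted *P* = 0.769 and 0.978, edgeR). *Slc8a1*, a sodium-calcium exchanger gene, was at 706 ± 128 CPM and 479 ± 39.5 CPM without overlap, with a log2 fold change of 0.56 that missed the threshold in edgeR (adjusted *P* = 0.0515).

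Marker genes of kidney cell types were set beside these results. Of 11 genes marking the first segments of the proximal tubule, S1 and S2, 6 were lower and 0 were higher in edgeR's quasi-likelihood test, beside 1.58% and 0.586% of all genes tested. At an unadjusted *P* under 0.05, 9 were lower and 0 were higher, beside 7.44% and 6.58%, and edgeR's exact test, DESeq2, and limma called 0 higher. Of the 6 genes, *Slc7a8* passed in 3 and *Slc6a19* in 6 of the 8 edgeR fits that left out 1 mouse, with an adjusted *P* of up to 0.0856 and 0.0620, and the other 4 passed in all 8. Over all 11 markers the median log2 fold change was -1.07. The levels of all 11 markers summed to 3417, 4327, 3934, and 3714 CPM in KO mice 1 to 4. In control mice 1 to 4 they summed to 6355, 6659, 6577, and 6632 CPM. The sum was lower in KO mice, as were *Slc34a1* and *Slc34a3*, and the part of these cells in the results on the carriers was not tested. The list includes *Slc5a2* (Sglt2), which the paper reports to be under direct control of c-Maf. The sum is therefore not a measure of the number of cells. No marker of this list was at 0 CPM. The list moved unevenly, since *Miox*, its most abundant gene per length, was at 1158 ± 179 CPM and 1396 ± 104 CPM (log2 fold change -0.27, adjusted *P* = 0.337, edgeR), whereas *Slc5a2*, the glucose carrier of these segments, which shares 20.6% of its exonic bases with *BC017158*, was at 8.19, 38.5, 31.2, and 20.2 CPM and at 338, 311, 334, and 302 CPM (log2 fold change -3.71, adjusted *P* = 0.0101, edgeR). KO mouse 1 was the lowest in *Slc5a2*, as in *Slc34a3*.

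Of 6 endothelial markers 1, *Kdr*, was lower (log2 fold change -0.37, adjusted *P* = 0.0450, edgeR), beside 1.58% of all genes tested. It passed in 0 of the 8 edgeR fits that left out 1 mouse, where the adjusted *P* ranged from 0.0552 to 0.138. The other 12 lists marked S3, thick limb, distal convoluted and connecting tubule, collecting duct, podocytes, macrophages, lymphocytes, fibroblasts, hepatocytes, parathyroid, bone, and tubular injury. They held 68 genes, of which 57 were tested and 0 passed in edgeR's quasi-likelihood test, with 5 higher and 3 lower at an unadjusted *P* under 0.05, beside 6.58% and 7.44% of all genes tested. The summed level of the 7 macrophage markers was higher in each KO than in each control mouse, at 109, 108, 118, and 113 CPM in KO mice 1 to 4 and 100.4, 95.02, 102.3, and 92.5 CPM in control mice 1 to 4, with a log2 fold change above 0 in 6 of the 7 genes. The endothelial sum was lower in each KO than in each control mouse, at 462, 505, 492, and 511 CPM against 561, 518, 597, and 529 CPM. The sums of the other marker lists in this paragraph overlapped between the genotypes, and no sum was tested. Of the 57 genes, DESeq2 called 2 lower (*Alb* and *Pvalb*), edgeR's exact test 1 lower (*Alb*) and 1 higher (*Serpina1a*), and limma 0. The counts of these tools over all genes tested are given above with the pathway lists. The most abundant gene per length of each tested list ranged in log2 fold change from -0.46 for *Spp1* of the injury list, which shares 18.8% of its exonic bases with *Gm42793*, to 0.65 for *Cyp2e1* of the hepatocyte list.

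The tissue label is whole kidney, while the extraction label names liver. The thick limb gene *Umod*, which shares 19.5% of its exonic bases with *Gm44588*, was at 2588 ± 667 CPM in KO and 2829 ± 349 CPM in control mice. The hepatocyte list summed to 1043 ± 550 CPM and 1005 ± 324 CPM, most of it from *Apob* (554 ± 98.8 and 675 ± 43.9 CPM) and *Cyp2e1* (447 ± 634 and 285 ± 279 CPM), whereas *Alb* was at 1.37 ± 0.830 and 5.65 ± 3.06 CPM. *Cyp2e1* was at 1398, 134, 129, and 127 CPM in KO mice 1 to 4 and at 47.2, 54.7, 433, and 606 CPM in control mice 1 to 4, highest in the low-*Xist* mice. How much of these levels comes from which tissue was not tested. *Atp11a*, the most abundant S3 marker per length, was at 3465, 872, 948, and 845 CPM in KO mice 1 to 4 and at 592, 750.4, 1684, and 2064 CPM in control mice 1 to 4, so the low-*Xist* mice were the highest. The parathyroid genes *Pth* and *Gcm2* were at 0 CPM or, for *Gcm2* in KO mouse 4, at 0.108 CPM, and the bone marker *Ibsp* was at 0 CPM in all mice.

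The genes whose pattern over the 8 mice was most like that of a member were found by the mean absolute difference of z scores among 17483 other genes of at least 1 CPM on average. For *Slc34a1* they were *Tcn2* (0.0635), *Ass1* (0.0777), and *Gpx3* (0.0812). For *Slc34a3* they were *Igsf11* (0.0648), *Tln2* (0.0653), and *Slc5a2* (0.0777), and for *Pth1r* they were *Mocs2* (0.0975), *Cyp2d12* (0.108), and *Tchhl1* (0.120). Only members past the threshold were compared, so the split between the genotypes weighs heavily in this measure. All genes found were themselves lower in KO mice, with adjusted *P* from 1.75e-05 (*Gpx3*) to 0.0115 (*Mocs2*) in edgeR. Shared control of these genes was not tested.

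Promoter sequences from RefSeq on GRCm38.p6, each 300 bases from 250 before to 50 after a start site, were matched to 7 of the 10 genes by symbol, with 10 windows in all. *Slc20a2*, *Cyp24a1*, and *Fgfr1* had no entry. Both strands were searched for TGCTGAC, the first 7 letters of the Maf recognition element, for TGCTGA, the same without its last base, for GTTAAT, the letters that HNF1 factors recognize, and for AGGTCA, the letters shared by many nuclear receptors. TGCTGAC was in 0 of the 10 windows, and in 4.67% of all 32851 promoters. TGCTGA was in 5 windows, those of *Cyp27b1* and *Vdr*, 1 of *Slc20a1*, and 2 of *Pth1r*, and in 19.5% of all promoters. GTTAAT was in 1 window, that of *Slc34a1*, at 2 positions, and in 7.10% of all promoters. AGGTCA was in 3 windows, that of *Slc34a3* at 2 positions and both of *Slc20a1*, and in 16.3% of all promoters. The windows of *Slc34a1* (chr13:55399398-55399697, plus strand), *Slc34a3* (chr2:25234185-25234484, minus strand), and *Cyp27b1* (chr10:127047996-127048295, plus strand) are shown because these genes had the 3 lowest log2 fold changes of the 7 genes with a window (*Cyp27b1* missed the threshold; *Pth1r*, which passed it, came next and is not shown), with matches to the 3 searches of 6 letters, or their reverse complements, in capitals. A match describes letters only and is not a measured binding site.
Slc34a1: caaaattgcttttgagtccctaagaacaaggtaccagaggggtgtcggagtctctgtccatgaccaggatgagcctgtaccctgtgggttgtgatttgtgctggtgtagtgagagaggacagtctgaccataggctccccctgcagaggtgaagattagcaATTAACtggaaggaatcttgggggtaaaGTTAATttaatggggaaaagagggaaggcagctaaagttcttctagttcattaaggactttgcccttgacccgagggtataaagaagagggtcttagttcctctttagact
Slc34a3: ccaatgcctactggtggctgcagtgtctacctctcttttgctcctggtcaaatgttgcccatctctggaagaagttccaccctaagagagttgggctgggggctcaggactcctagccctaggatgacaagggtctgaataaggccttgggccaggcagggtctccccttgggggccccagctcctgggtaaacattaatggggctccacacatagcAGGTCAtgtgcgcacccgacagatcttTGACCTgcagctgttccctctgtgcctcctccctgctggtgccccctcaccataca
Cyp27b1: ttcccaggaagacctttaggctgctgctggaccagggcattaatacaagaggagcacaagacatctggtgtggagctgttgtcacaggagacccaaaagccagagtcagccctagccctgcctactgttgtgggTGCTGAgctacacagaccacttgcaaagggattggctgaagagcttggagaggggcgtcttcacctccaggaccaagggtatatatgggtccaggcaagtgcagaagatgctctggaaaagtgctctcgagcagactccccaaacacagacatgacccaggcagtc
Counted to the first base of each match, they lie 89 and 61 bases before the RefSeq start of *Slc34a1*, 33 and 6 bases before that of *Slc34a3*, and 116 bases before that of *Cyp27b1*. These starts are not the outer ends of the genes in the annotation used for the counts. The RefSeq start is 1461 bases inside *Slc34a1* and 130 bases inside *Slc34a3* as annotated, so the matches of both lie within the annotated genes, and for *Cyp27b1* it is 4 bases outside.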

How the data were processed

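Whole-kidney RNA-Seq of 4 *c-Maf* ΔTAM (KO) and 4 *c-Maf fl/fl* (control) mice, grouped by the genotype label, was used. The values are deposited counts, whole reads for each gene name, made by the authors with featureCounts 2.0.1 (file header; the submitters' processing notes name Subread 2.0.2) on exons of Ensembl release 102, GRCm38. Each read of a pair was counted, strand was ignored, and reads on exons of more than 1 gene were left out, so a gene and an antisense partner cannot be told apart. No normalization had been applied to the deposited values, and the aligner behind the counts is not given in the sources used here. The paper describes another route, from reads mapped to mm10 in CLC Genomics Workbench, which was not repeated.

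Genes were kept by edgeR's filterByExpr (20149 of 55367), and library sizes were scaled by TMM to CPM (factors 0.857 to 1.11). Genotypes were compared over the whole table with edgeR's robust quasi-likelihood test, without covariates, and *P* values were adjusted by Benjamini-Hochberg over all genes tested, with a threshold of 0.05 (R 4.3.3, edgeR 4.0.16, limma 3.58.1, DESeq2 1.42.0, Python 3.11.15, scipy 1.17.1, matplotlib 3.10.9). Standard errors are the log2 fold change over the root of the *F* statistic. Log2 CPM used a prior count of 2. Mice with at least 1000 *Xist* counts form the high class. With 16649129 to 22990257 counts per mouse, genes under 1 CPM rest on few counts. The code was tested on simulated counts. Within a genotype, each pair of mice differed beyond sampling noise.

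The members and the pathway and marker lists were chosen with earlier results of these data known, and the motifs after seeing these results. Named genes were *Maf*, the 10 members, of each pathway list each gene past the threshold and the 3 most abundant per length, of each marker list its most abundant gene per length and genes at or near 0, and the 3 genes most like each member past the threshold. *Slc5a2*, *Slc7a8*, *Slc6a19*, *Pdzd3*, *Etv4*, *Dusp6*, *Spry1*, *Spry2*, *Egr1*, *Kdr*, *Apob*, *Serpina1a*, and *Pvalb* were also named, after their values were seen. Exon sharing was read from the annotation in the file. Alternatives were upper-quartile or RLE factors, limma on quantile-normalized values, DESeq2 with its own filter, edgeR's exact test (filtered at a total of 5 counts), filters of at least 1 count in any mouse or 10 counts in each, no mitochondrial or ribosomal RNA genes, the replicate number as a block, the *Xist* level as a covariate, high-*Xist* mice alone, a threshold of 0.01, and each mouse left out. The fit without the mice of over 25% mitochondrial counts was added after seeing the data.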

Additional observations from a re-analysis of the deposited data

Results flagged for a closer look

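*Slc20a2* in control mice was at 47.7, 46.8, 52.9, and 47.2 CPM in mice 1 to 4, and mouse 3 stood apart from the other 3, with a gap to the nearest of them that was 0.852 of the range of the group. It was the 1 such case among 22 groups of 4 values, formed by *Maf* and the 10 genes in each genotype, and chance gives about 1 in 20. The value of 52.9 CPM lay within the range of the KO mice, 42.4 to 62.0 CPM. Without control mouse 3 the log2 fold change of *Slc20a2* was 0.13, beside 0.085 with it.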

How the results depend on the processing

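The log2 fold changes of the 10 genes and *Maf* kept their sign in each alternative, except for *Slc20a2* without KO mouse 4 (-0.016, in a range to 0.17) and *Vdr* without KO mouse 1 (-0.053), control mouse 1 (-0.044), or control mouse 2 (-0.056, in a range to 0.16 with single mice left out and to 0.27 in high-*Xist* mice alone). *Slc34a1* passed the threshold in each of them. The number of members called was 5 in edgeR's exact test and 1 at a threshold of 0.01, and with single mice left out it ranged from 1 to 3. Over all genes, the exact test called 596 of 31280 tested, and 180 of 20149 passed a threshold of 0.01. The exact test, which was run with a filter of at least 5 counts over all mice (31280 genes tested), so that the test and the filter changed together, lifted *Cyp27b1* (-3.01, adjusted *P* = 2.78e-05) and *Cyp24a1* (-3.01, adjusted *P* = 0.0294) past the threshold, and DESeq2 lifted *Cyp27b1* (-3.02, adjusted *P* = 0.00231); the cause was not tested. With a filter of at least 1 count in any mouse, edgeR's quasi-likelihood test gave an adjusted *P* of 0.174 for *Cyp27b1* and 0.434 for *Cyp24a1*. The filter of at least 10 counts in each mouse removed *Slc34a3* and *Cyp24a1*, through KO mouse 1. Quantile normalization with limma ended the call of *Pth1r* (-0.36), as did leaving out the mice of over 25% mitochondrial counts (-0.45), chosen after seeing the data, where *Maf* was at -3.79. *Maf* was at -3.87 in high-*Xist* mice alone, where 5 mice remained. With single mice left out, log2 fold changes ranged from -5.07 to -4.06 for *Slc34a3* (past the threshold in 3 of 8), from -0.53 to -0.43 for *Pth1r* (4 of 8), and from -4.41 to -3.80 for *Maf* (8 of 8).

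The count of pathway genes called in either direction, 6 and all lower, was 13 with the *Xist* level as a covariate (12 lower and 1 higher). It was 3 without the mice of over 25% mitochondrial counts, 2 at a threshold of 0.01, and 2 to 5 with single mice left out. The count over all genes, 436, was 836 in DESeq2, 1441 with the *Xist* covariate, 789 in high-*Xist* mice alone, 180 at a threshold of 0.01, and 239 to 452 with single mice left out. The share of higher genes among those called was 27.1%, against 38.9% with the covariate and 40.8% in high-*Xist* mice.

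The labels number the replicates but do not say whether mice were paired. Same-numbered mice had correlations of deviations of -0.373, 0.152, -0.110, and -0.331, and not every mouse correlated best with its own number. Low-*Xist* KO mouse 1 was at 0.329 and 0.384 with low-*Xist* control mice 3 and 4. With control mice 1 and 2 it was at -0.373 and -0.387. *Xist* class thus enters these correlations, and they cannot settle whether mice were paired. With the replicate number as a block, 129 genes were called (14% of them higher) and 1 pathway gene, *Maf* was at -4.28, *Slc34a3* at -4.68, and *Pth1r* at -0.48, all 3 over 0.05 in adjusted *P* (0.0516, 0.0683, and 0.161), and *Cyp27b1* was called (-3.33, adjusted *P* = 0.0284).

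At this depth the lowest KO values of *Slc34a3*, *Cyp27b1*, and *Cyp24a1*, 8 to 15 counts, are the least certain of those given.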
